A study of Mus musculus with 6 samples.

Results

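The Notch pathway was described through 10 genes in breast tumors: the receptors *Notch1*, *Notch2*, *Notch3* and *Notch4*, the ligands *Jag1*, *Jag2* and *Dll1*, and the target genes *Hes1*, *Hey1* and *Heyl*. They were chosen by name as members of the pathway, out of 18460 genes listed in at least 1 tumor, and were found by NCBI Gene identifier. All 10 were listed in all 6 tumors and passed the filter on low counts. The test group was 3 tumors labeled K14-TSLPtg;PyMTtg;Rag1KO+CD4+ T cells and the control group 3 tumors labeled PyMTtg;Rag1KO+CD4+ T cells, all on Balb/c. All mice carried the polyoma middle T oncogene under the MMTV promoter and lacked Rag1, and thus their own T and B cells. CD4+ T cells were injected into all of them when they were 4 wk old, and tumors were collected in weeks 18 to 20. Only the test mice carried the K14-TSLP transgene, which drives thymic stromal lymphopoietin from the keratin 14 promoter. Each tumor came from a separate mouse, and whole tumor tissue was sequenced.

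In Notch signaling a transmembrane ligand of the Jagged or Delta family on 1 cell binds a Notch receptor on its neighbor. The receptor is then cut by an ADAM protease and by γ-secretase, and its intracellular domain enters the nucleus, joins the DNA-binding protein RBPJ and turns on genes such as *Hes1*, *Hey1* and *Heyl*, which encode basic helix-loop-helix repressors. In the mammary gland Notch signaling is known to favor the luminal over the basal lineage. NOTCH4 is known from endothelium, and NOTCH3 and HEYL from the mural cells of vessels.

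Expected counts, which estimate the reads from each gene, summed to between 8373390 and 9449565 per tumor. CPM is the count relative to the library total after TMM scaling, and FPKM, deposited by the authors, is also divided by gene length. Over 13706 tested genes, edgeR's quasi-likelihood test called 0 genes at an adjusted p of 0.05 or less and 1153 at an unadjusted p under 0.05. DESeq2 called 313, and limma-trend called 1 on log2(FPKM + 1) and 0 on log2(FPKM + 0.1). Log2 expression in control replicate 2 correlated across genes at 0.874 and 0.908 with control replicates 1 and 3, and at 0.921, 0.927 and 0.935 with test replicates 1, 2 and 3. Without that tumor edgeR called 182 genes. *Tslp* had 2 to 3 counts in control tumors and 12, 7 and 2 in the test tumors, and its own level did not separate the groups. *Cd3e*, a chain of the CD3 complex of T cells, had 1 to 7 counts in each tumor. *Rag1* had 4 to 27 counts, and whether these lie in the deleted stretch was not tested.

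No Notch gene differed between test and control tumors at an adjusted p of 0.05 or less in edgeR, where the share of all tested genes called was 0%. DESeq2 also called 0 of the 10, beside 2.29% of all genes it gave an adjusted p, and so did limma-trend on log2(FPKM + 1), beside 0.00776%, and on log2(FPKM + 0.1), beside 0%. *Jag1* was the member with an unadjusted p under 0.05, 1 of 10 beside 8.41% of all tested genes, and 1 of 10 beside 5.26% when counted in the lower direction. In the higher direction it was 0 of 10 beside 3.15%. *Notch4* was the member whose CPM did not overlap between the groups, 1 of 10 beside 12% of all tested genes, and 1 of 10 beside 6.12% when counted in the higher direction. In the lower direction it was 0 of 10 beside 5.86%. Both shares are near the background. On average 4 members were higher and 6 lower in test tumors, beside 51.5% and 48.5% of all tested genes. The median log2 fold change was -0.31 over the members and 0.02 over all tested genes. In the mix of the 3 ligands, *Dll1* took a larger share in each test tumor than in any control tumor, and *Jag1* a smaller share than in any control tumor.

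**Figure D1:**
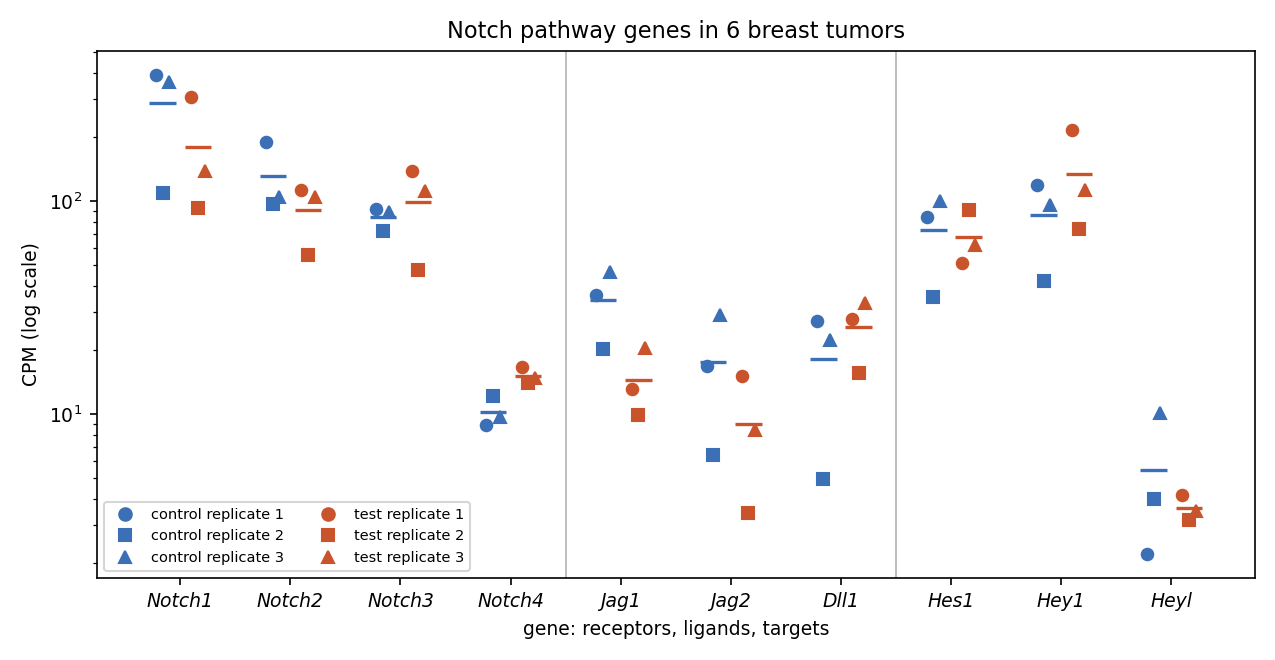
CPM (log axis) of the 10 genes in each tumor, with control tumors in blue and test tumors in orange, 1 symbol per replicate and a bar at each group mean (n = 3). *Notch4* is the gene whose groups do not overlap, with control tumors up to 12.1 CPM and test tumors from 13.9 CPM.

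*Hey1*, *Hes1* and *Notch1* held the first 3 places in level per length in each tumor, and the third target gene, *Heyl*, was the lowest of the 10 in 5 of 6 tumors. Averaged over the 6 tumors, *Hey1* was at 49.7 FPKM, *Hes1* at 47.4 and *Notch1* at 24.2. *Notch3* followed at 11.4 FPKM, *Notch2* at 10.3, *Dll1* at 6.27, *Jag1* at 4.39, *Jag2* at 3.25, *Notch4* at 1.90 and *Heyl* at 1.00. *Hes1* exceeded *Notch1*, *Notch1* exceeded *Notch3*, and *Notch2* exceeded *Dll1* in 6 of 6 tumors each. Neighbors in the order that changed places between tumors were *Hey1* and *Hes1*, in this order in 2 of 6 tumors, *Notch3* and *Notch2* in 4, *Dll1* and *Jag1* in 4, and *Jag2* and *Notch4* in 3. *Jag1* exceeded *Jag2*, and *Notch4* exceeded *Heyl*, in 5 of 6 tumors each. In mean FPKM *Hey1* lay above 91.1% of all listed genes and *Heyl* above 30.2%.

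The ligands differed in direction. *Jag1* (chromosome 2, 137081451 to 137116520, GRCm38), which encodes Jagged 1, was at 36.2, 20.2 and 46.5 CPM in control replicates 1, 2 and 3 whereas test replicates 1, 2 and 3 had 13.1, 9.89 and 20.5 CPM. Test replicate 3 lay just above control replicate 2, so that the groups touched at 1 pair, and in 8 of the 9 pairs of a test and a control tumor the control tumor was higher. On the FPKM scale the same pair was at 3.67 in test replicate 3 and 3.78 in control replicate 2, so that all test tumors lay below all control tumors. The mean was 34.3 ± 13.2 CPM in the controls and 14.5 ± 5.43 CPM in the test group (SD, 3 tumors each). The log2 fold change was -1.24 (standard error 0.41, 95% interval -2.20 to -0.28), with an unadjusted p of 0.0176 and an adjusted p of 0.475 by the quasi-likelihood test of edgeR after Benjamini-Hochberg adjustment. An exact permutation test (two-sided) returned p = 0.2, where 3 against 3 tumors cannot go below 0.1. Leaving out each tumor in turn gave log2 fold changes from -1.56 to -0.96, and the unadjusted p of edgeR was 0.0733 without control replicate 3, 0.0515 without test replicate 1 and 0.0561 without test replicate 2.

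*Jag2* (chromosome 12, 112907803 to 112929812), which encodes Jagged 2, was at 16.8, 6.38 and 29.3 CPM in control replicates 1, 2 and 3 whereas test replicates 1, 2 and 3 had 15.0, 3.42 and 8.38 CPM. Its highest tumor was 8.57 times its lowest, the widest spread of the 10 genes, and the groups overlapped. The log2 fold change was -0.97 (standard error 0.67, adjusted p = 0.733 in edgeR). *Dll1* (chromosome 17, 15367354 to 15376932), which encodes Delta-like 1, was at 27.4, 4.97 and 22.2 CPM in control replicates 1, 2 and 3 whereas test replicates 1, 2 and 3 had 27.8, 15.6 and 33.3 CPM. Control replicate 2 was the low tumor, and the other controls lay within the range of the test tumors. The log2 fold change was 0.49 (standard error 0.59, adjusted p = 0.837 in edgeR), and 0.05 without control replicate 2.

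As a share of the FPKM summed over the 3 ligands, *Dll1* was at 42.6%, 21.6% and 29.2% in control replicates 1, 2 and 3 and at 57.0%, 63.3% and 62.6% in test replicates 1, 2 and 3. The groups did not overlap, and the test tumors lay close together (mean 61.0% ± 3.44, SD, n = 3, beside 31.1% ± 10.7 in control tumors). *Jag1* took 35.2%, 54.9% and 38.2% in control tumors and 16.8%, 25.0% and 24.0% in test tumors, again without overlap. *Jag2* took 11.7% to 26.1% in test tumors and 22.2% to 32.7% in control tumors. The ratio of *Jag1* to *Dll1* FPKM was 0.825, 2.54 and 1.31 in control tumors and 0.295, 0.395 and 0.383 in test tumors. The shares of the ligands were looked at after their levels had been seen, so they are given without a test. With *Dll4*, a Delta-like ligand of endothelium, added to the sum, *Dll1* took 17.5% to 38.4% in control and 48.7% to 56.9% in test tumors. The summed FPKM of the 3 ligands was 17.3, 6.89 and 22.6 in control and 14.6, 6.76 and 15.3 in test tumors and overlapped.

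**Figure D2:**
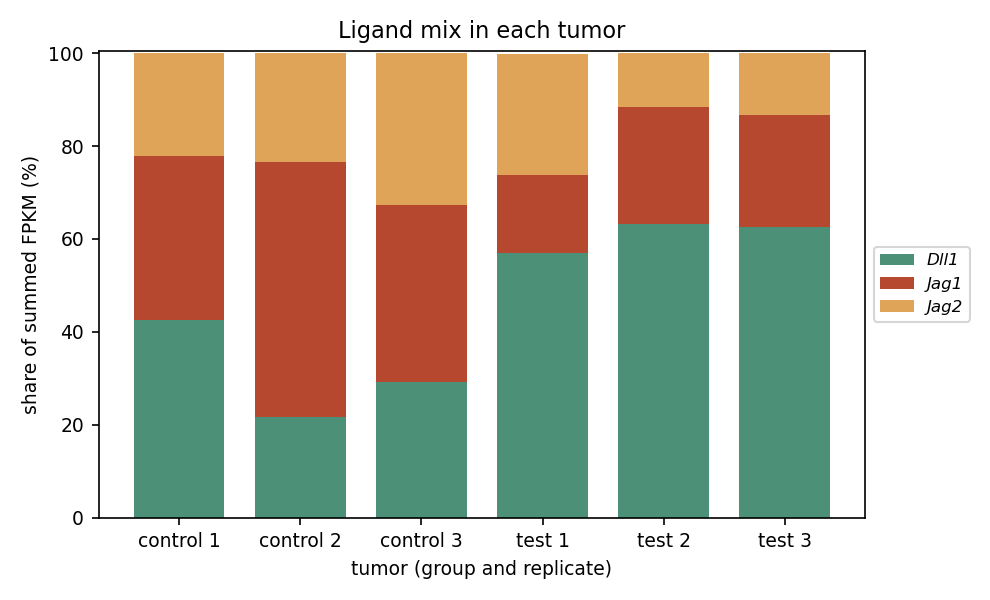
Share (%) of each ligand in the FPKM summed over *Dll1*, *Jag1* and *Jag2*, 1 bar per tumor. The *Dll1* part reaches from 57.0% to 63.3% in the 3 test tumors and from 21.6% to 42.6% in the 3 control tumors.

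The bases before the transcript starts of the ligands whose shares separated the groups, and of *Notch4*, are shown to place these genes, with the strand of the gene read 5′ to 3′ and each CG dinucleotide in capitals. They are 250 bases each, from RefSeq on GRCm38.p6, at chr2:137116521-137116770 (minus strand) for *Jag1*, chr17:15376933-15377182 (minus strand) for *Dll1* and chr17:34564045-34564294 (plus strand) for *Notch4*.
*Jag1*: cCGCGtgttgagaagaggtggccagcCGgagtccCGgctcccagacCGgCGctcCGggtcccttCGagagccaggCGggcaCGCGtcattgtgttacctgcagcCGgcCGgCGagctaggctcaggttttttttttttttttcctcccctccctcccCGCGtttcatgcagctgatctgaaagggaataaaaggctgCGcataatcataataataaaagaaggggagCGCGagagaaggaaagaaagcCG
*Dll1*: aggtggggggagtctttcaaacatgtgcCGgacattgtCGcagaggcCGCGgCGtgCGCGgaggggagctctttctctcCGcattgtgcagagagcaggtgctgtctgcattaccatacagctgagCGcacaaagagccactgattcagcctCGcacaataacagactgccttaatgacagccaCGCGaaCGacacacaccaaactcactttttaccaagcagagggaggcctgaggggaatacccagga
*Notch4*: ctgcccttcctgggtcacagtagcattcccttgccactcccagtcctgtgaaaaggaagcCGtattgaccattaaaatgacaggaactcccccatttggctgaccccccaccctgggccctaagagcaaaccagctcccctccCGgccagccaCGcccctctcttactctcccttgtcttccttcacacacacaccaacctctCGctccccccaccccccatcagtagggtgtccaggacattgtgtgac
These windows hold 20 CG dinucleotides for *Jag1*, 13 for *Dll1* and 4 for *Notch4*, beside a median of 6 over 32851 windows of the same length. Windows were matched for 7 of the 10 members, 8 windows in all, because *Dll1* has 2. Its other window, at chr17:15375824-15376073 (minus strand) and not shown, holds 21 CG dinucleotides. None of the 8 contains the letters TGGGAA, the core of the RBPJ site, CACGTG, an E-box bound by Hey factors, or TGACTCA, the AP-1 site, on either strand. Over all windows 21.6%, 6.02% and 4.46% contain them.

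Among the receptors, *Notch4* (chromosome 17, 34564286 to 34588543) was at 8.91, 12.1 and 9.70 CPM in control replicates 1, 2 and 3 whereas test replicates 1, 2 and 3 had 16.6, 13.9 and 14.7 CPM. All test tumors lay above all control tumors, on the FPKM scale as well. The mean was 10.2 ± 1.67 CPM in the controls and 15.1 ± 1.38 CPM in the test group (SD, 3 tumors each). The log2 fold change was 0.56 (standard error 0.30, 95% interval -0.14 to 1.26, adjusted p = 0.684 in edgeR), and an exact permutation test (two-sided) returned p = 0.1, the smallest that this design allows. Without each tumor in turn the log2 fold change ran from 0.46 to 0.70. The 8 endothelial markers summed to 152, 107 and 150 CPM in control and 126, 148 and 163 CPM in test tumors and overlapped. *Notch4* made 5.87%, 11.4% and 6.47% of that sum in control and 13.2%, 9.41% and 9.06% in test tumors, which also overlapped. Singly, 6 of the 8 endothelial markers were higher on average in test tumors, beside 51.5% of all tested genes. Their median log2 fold change was 0.415, and 0 of the 8 had groups without overlap, beside 12% of all tested genes. In whole tumor tissue, a difference in the number of cells of a type and a difference in RNA per cell cannot be told apart.

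*Notch1* (chromosome 2, 26457902 to 26503822), the most abundant receptor in each tumor, was at 392, 109 and 363 CPM in control replicates 1, 2 and 3 whereas test replicates 1, 2 and 3 had 308, 93.0 and 138 CPM. Each group held high and low tumors, and the log2 fold change was -0.68 with a standard error of 0.59 (adjusted p = 0.784 in edgeR). *Notch2* (chromosome 3, 98013538 to 98150367) was at 190, 97.1 and 104 CPM in control and 113, 55.5 and 104 CPM in test tumors. Control replicate 1 was the high tumor and test replicate 2 the low one, and the log2 fold change was -0.51 (standard error 0.38, adjusted p = 0.755 in edgeR), -0.14 without control replicate 1 and -0.25 without test replicate 2. *Notch3* (chromosome 17, 32120820 to 32166896) lay closer together in control tumors, at 92.0, 72.1 and 88.4 CPM, than in test tumors, at 139, 47.5 and 111 CPM. Its log2 fold change was 0.24 (standard error 0.39, adjusted p = 0.883 in edgeR) and changed sign to -0.08 without test replicate 1. The 8 mural cell markers, which mark cells known for *Notch3*, summed to 125, 158 and 615 CPM in control and 464, 149 and 124 CPM in test tumors. Control replicate 3 and test replicate 1 had the high sums, of which *Myh11*, smooth muscle myosin, made 461 and 282 CPM. The basal or myoepithelial marker *Cnn1* was also highest in these tumors, at 189 and 96.2 CPM. In test replicate 1 *Des* made a further 119 CPM, and the skeletal muscle markers had their highest sum, 904 CPM. *Rgs5*, *Pdgfrb*, *Cspg4* and *Kcnj8* were lower in test replicate 1 than in any other tumor, at 9.34, 20.4, 3.81 and 2.42 CPM. Whether the high sums follow mural cells was not tested. Of the 7 mural markers tested, 6 were lower on average in test tumors, beside 48.5% of all tested genes.

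The mix of receptors, as shares of their summed FPKM, did not separate the groups. *Notch1* took 57.1%, 36.3% and 63.0% in control and 51.2%, 42.2% and 35.8% in test tumors (exact two-sided permutation test, p = 0.4). *Notch3* took up to 28.7% in control tumors and 25.8% to 34.4% in test tumors, with means of 21.0% ± 6.76 and 29.3% ± 4.50 (SD, exact permutation p = 0.3). The mean difference was -9.04 percentage points for *Notch1* and 8.27 for *Notch3*. *Notch2* differed by -2.05 points (exact permutation p = 0.7) and *Notch4* by 2.83 points (exact permutation p = 0.3). Control replicate 2 had the lowest *Notch1* and the highest *Notch2* and *Notch3* shares of the controls. The summed FPKM of the receptors was 66.7, 32.4 and 61.8 in control and 64.6, 21.7 and 40.0 in test tumors.

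**Figure D3:**
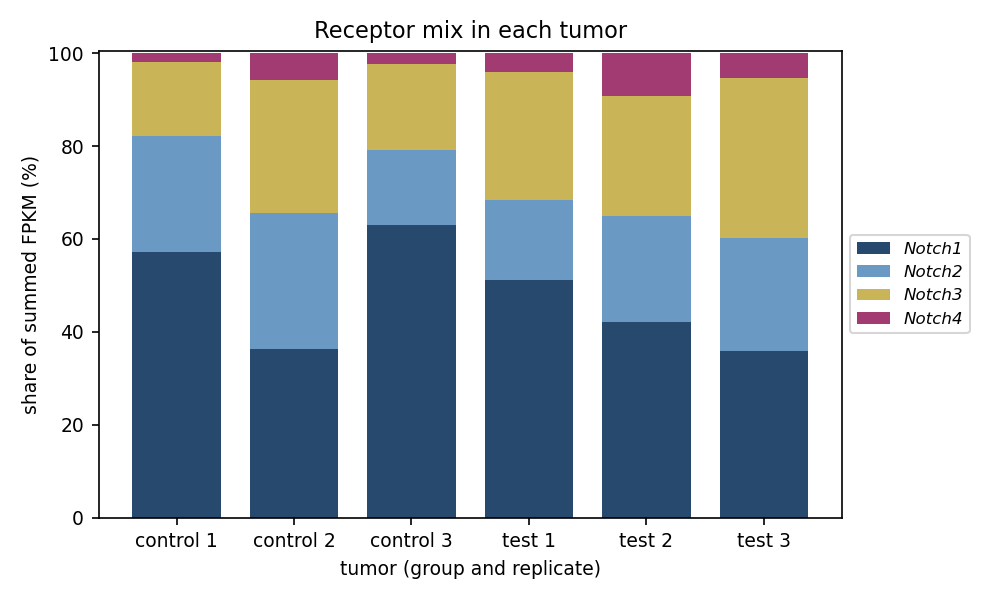
Share (%) of each receptor in the FPKM summed over *Notch1* to *Notch4*, 1 bar per tumor. *Notch1* takes between 35.8% and 63.0%, and the bar of control replicate 2 (36.3%) lies within the range of the test tumors.

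The target genes did not move in 1 direction. *Hey1* (chromosome 3, 8663359 to 8667038) was at 119, 42.3 and 95.9 CPM in control replicates 1, 2 and 3 whereas test replicates 1, 2 and 3 had 216, 73.8 and 113 CPM. Test replicate 1 was the high tumor and control replicate 2 the low one. The log2 fold change was 0.65 (standard error 0.50, adjusted p = 0.760 in edgeR) and 0.13 without test replicate 1. *Hes1* (chromosome 16, 30065357 to 30067796) was at 84.1, 35.5 and 100 CPM in control and 51.2, 90.3 and 62.3 CPM in test tumors. The test tumors lay within the range of the controls, at a log2 fold change of -0.11 (standard error 0.42, 95% interval -1.07 to 0.86, adjusted p = 0.956 in edgeR). *Heyl* (chromosome 4, 123233556 to 123249870) had 19 to 95 counts per tumor and was at 2.20, 4.00 and 10.1 CPM in control and between 3.17 and 4.15 CPM in test tumors. Its log2 fold change, -0.59 (standard error 0.61, adjusted p = 0.807 in edgeR), rested on control replicate 3 and was 0.21 without it. The ratio of *Hey1* to *Hes1* FPKM was 0.943, 0.794 and 0.638 in control and 2.81, 0.544 and 1.21 in test tumors, so that test replicates 1 and 3 had more *Hey1* and test replicate 2 the lowest ratio.

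**Figure D4:**
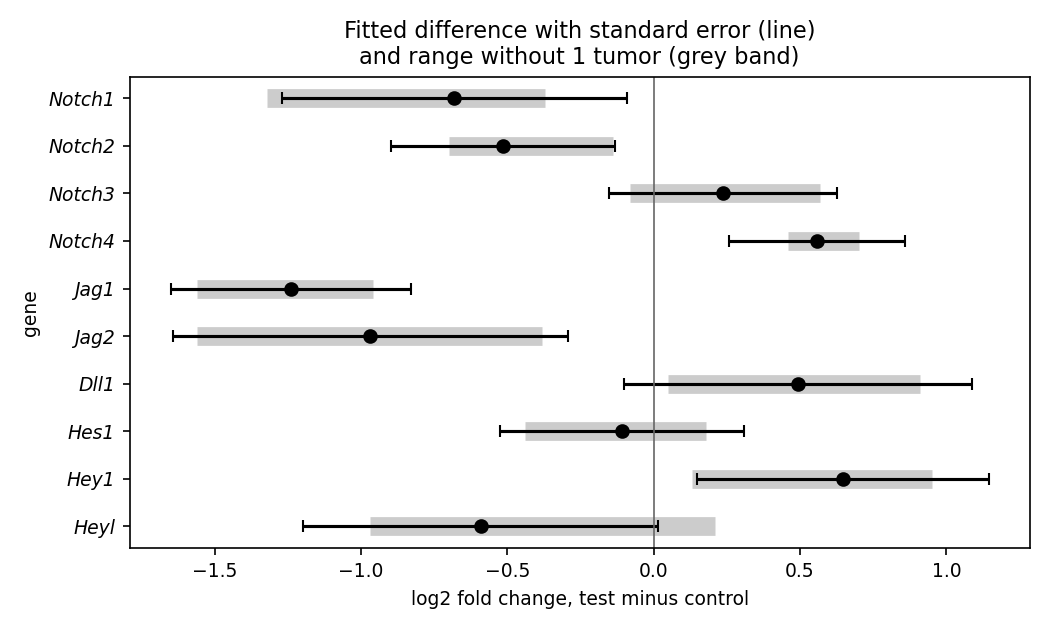
Log2 fold change (test minus control) of each gene from edgeR's quasi-likelihood fit, with its standard error as a line and, as a grey band, the range when each of the 6 tumors was left out in turn. The bands of *Notch3*, *Hes1* and *Heyl* cross 0, and *Jag1* keeps between -1.56 and -0.96.

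The tumor with the highest or lowest CPM differed between members. Control replicate 1 was the highest tumor for *Notch1* and *Notch2* and the lowest for *Notch4* and *Heyl*, and test replicate 3 was the highest for *Dll1*. Control replicate 3 was the highest tumor for *Jag1*, *Jag2*, *Hes1* and *Heyl*, and test replicate 1 for *Notch3*, *Notch4* and *Hey1*. Test replicate 2 was the lowest for 5 members, *Notch1*, *Notch2*, *Notch3*, *Jag1* and *Jag2*, and control replicate 2 for *Dll1*, *Hes1* and *Hey1*. Without control replicate 2 the log2 fold changes were -1.07 for *Notch1*, -1.51 for *Jag1*, -1.36 for *Jag2*, 0.32 for *Hey1* and 0.70 for *Notch4*, and 0 members passed an adjusted p of 0.05 in edgeR. Other omissions made some of these smaller. *Notch1* was at -0.40 without control replicate 1 and -0.37 without test replicate 2, but -1.32 without test replicate 1. *Jag2* was at -0.38 without control replicate 3, -0.58 without test replicate 2 and -1.56 without test replicate 1.

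Of 51 other genes of the pathway, 40 were tested, and 17 were higher and 23 lower on average in test tumors, with a median log2 fold change of -0.15. None passed an adjusted p of 0.05 in edgeR, and 3 of 40 had an unadjusted p under 0.05, beside 8.41% of all tested genes, so that their count was no higher than the background. These 3, named after their values were seen, were *Rbpj*, *Lfng* and *Numb*. *Rbpj*, the DNA-binding partner of all 4 receptors, was at 383, 164 and 279 CPM in control and 131, 89.6 and 173 CPM in test tumors, and the fitted log2 fold change was -1.07 (standard error 0.39, adjusted p = 0.513 in edgeR), with test replicate 3 above control replicate 2. *Lfng*, a Fringe glycosyltransferase that alters the response of receptors to Jagged and Delta ligands, was at 27.3, 13.7 and 17.2 CPM in control tumors and at a mean of 9.89 ± 3.59 CPM in test tumors, of which test replicate 2 at 13.9 CPM was the highest (log2 fold change -0.97, standard error 0.41, adjusted p = 0.572 in edgeR). *Numb*, an endocytic adaptor that restrains Notch, was at 98.9, 60.0 and 68.4 CPM in control and 161, 90.7 and 136 CPM in test tumors (log2 fold change 0.77, standard error 0.31, adjusted p = 0.558 in edgeR). The groups overlapped for all 3.

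The groups did not overlap for 4 of the 40 genes, 2 in each direction, beside 12% of all tested genes. *Neurl1b*, a ubiquitin ligase for ligand endocytosis, was at 3.57 to 4.98 CPM in control and 5.84 to 10.5 CPM in test tumors. *Mfng*, another Fringe, was at 1.30 to 2.78 CPM in control and 3.11 to 4.15 CPM in test tumors. *Pofut1*, which adds O-fucose to Notch receptors, was at 31.7 to 42.7 CPM in control and 24.3 to 29.9 CPM in test tumors, and was named after its values were seen. *Dtx2*, a Deltex ubiquitin ligase, was at 13.6 to 16.9 CPM in control and 10.6 to 11.4 CPM in test tumors. By role, 7 of 10 protease and γ-secretase genes, 5 of 9 nuclear genes and 3 of 5 glycosyltransferases were lower on average, and 6 of 10 negative regulators and adaptors were higher, beside 48.5% lower and 51.5% higher over all tested genes. *Hes3*, *Hes5* and *Dner* were not listed in any tumor, and *Hes2*, *Hes7* and *Hey2* had 13 or fewer counts in each tumor.

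The sum of the luminal epithelial markers separated the groups, and that of the basal or myoepithelial markers overlapped. All 8 luminal markers were higher on average in test tumors, and their sum was 2340, 4640 and 2150 CPM in control and 5970, 6020 and 5990 CPM in test tumors without overlap, with 0 of the 8 past an adjusted p of 0.05 in edgeR and 4 of the 8 not overlapping between the groups, all higher in test tumors, beside 6.12% of all tested genes. *Jag1* was highest in the tumors with the lowest luminal sum, control replicates 3 and 1. Control replicate 2 lay between these and the test tumors in its luminal sum, and just below test replicate 3 in *Jag1* CPM. *Jag1* made 1.55%, 0.436% and 2.16% of the luminal sum in control and 0.220%, 0.164% and 0.342% in test tumors. The 6 basal or myoepithelial markers, of a layer known for *Jag1*, summed to 530, 231 and 958 CPM in control and 404, 304 and 384 CPM in test tumors, and *Jag1* made 6.83%, 8.77% and 4.85% of that sum in control and 3.26%, 3.25% and 5.33% in test tumors. *Trp63* made 371 CPM of it in control replicate 1 and *Krt5* 421 CPM in control replicate 3. On average 5 of the 6 basal markers were lower in test tumors, beside 48.5% of all tested genes. Their median log2 fold change was -0.537, with 0 past an adjusted p of 0.05 in edgeR, beside 0% of all tested genes. None had groups without overlap, beside 12% of all tested genes. The 8 immediate early genes, which respond to stress and handling, summed to 593 to 659 CPM in control and 415 to 519 CPM in test tumors. This sum also separated the groups, lower in test tumors without overlap. Singly they were split, with 4 higher and 4 lower on average in test tumors. Only *Egr1* was lower without overlap, 1 of 8 beside 5.86% of all tested genes. The part of these cells and genes in the Notch results was not tested.

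**Figure D5:**
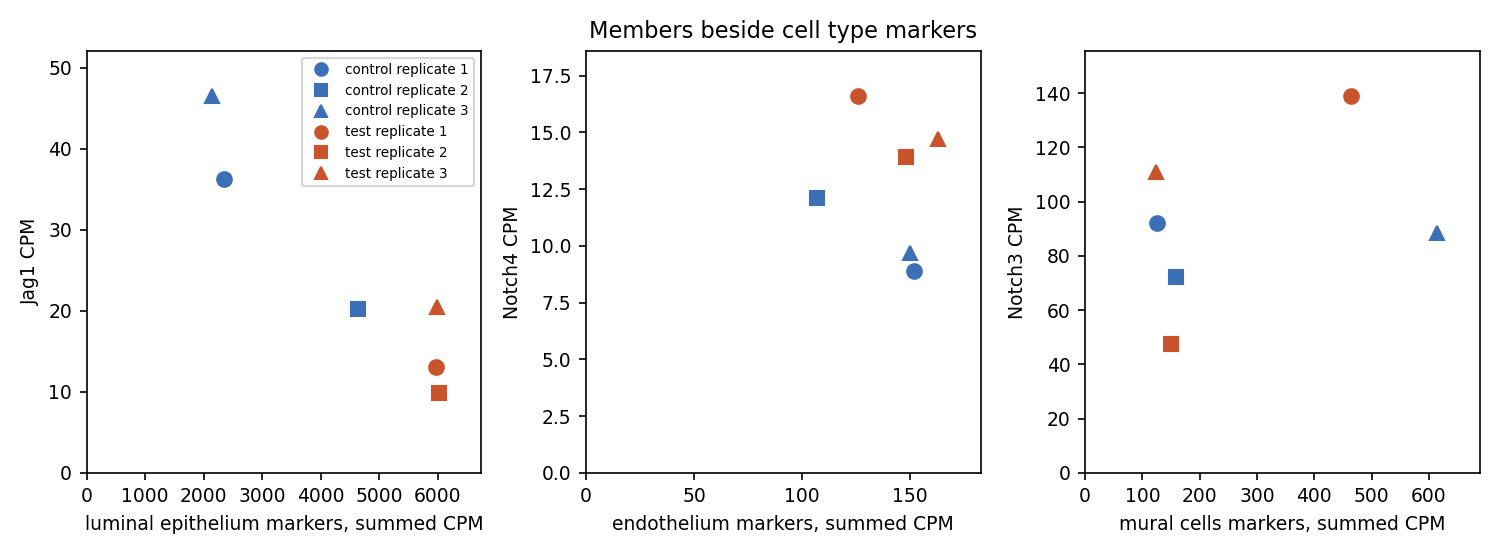
CPM of *Jag1*, *Notch4* and *Notch3* (vertical axes) in each of the 6 tumors against the summed CPM of luminal, endothelial and mural cell markers (horizontal axes), with control tumors in blue and test tumors in orange. The 3 test tumors lie at a luminal sum of 5970 to 6020 CPM and the controls at 2150 to 4640 CPM. The endothelial and mural sums overlap. *Myh11* makes 461 CPM of the mural sum in control replicate 3 and 282 CPM in test replicate 1.

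The remaining marker sums overlapped between the groups. Singly, 6 of 6 skeletal muscle and 5 of 6 fibroblast markers were higher on average in test tumors, beside 51.5% of all tested genes. So were 2 of 2 adipocyte and 2 of 3 T cell markers that were tested. All 6 myeloid markers were lower on average in test tumors, beside 48.5% of all tested genes. Fibroblast markers ran from 967 to 2950 CPM in control and 1160 to 4970 CPM in test tumors, and myeloid markers from 361 to 713 and 242 to 482 CPM. T cell markers were at 5.08 to 7.56 CPM in control and 4.96 to 9.52 CPM in test tumors, and B cell markers at 1.95 CPM or less, with *Ms4a1* not listed in any tumor. Skeletal muscle markers were at 5.11 to 179 CPM in control and 99.5 to 904 CPM in test tumors, and adipocyte markers at 0.347 to 6.49 and 1.70 to 233 CPM, both highest in test replicate 1, the tumor with the highest *Notch3*, *Notch4* and *Hey1*. The part of this tissue in those levels was not tested.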

How the data were processed

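Total RNA of 6 mouse breast tumors was sequenced at BGI, and reads were aligned to mm10. The submitters' processing notes name Bowtie, BWA and RSEM, and versions and annotation are not given in the sources used here. The authors deposited 1 expected count per gene without normalization. They also deposited FPKM values, scaled by the authors for length and depth, and the gene length. Genes without reads are not listed and were set to 0. The median total count was 8571403 in test and 9090055 in control tumors. Groups came from the sample titles. NCBI Gene identifiers were matched to RefSeq on GRCm38.p6, the same build as mm10, for 18400 of 18460 genes.

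Expected counts were rounded, and edgeR 4.0.16 under R 4.3.3 was run on them (filterByExpr, TMM, quasi-likelihood test without covariates, Benjamini-Hochberg adjustment over all 13706 tested genes). The standard error is the size of the log2 fold change divided by the square root of F, and its 95% interval uses the total degrees of freedom. The study names a Poisson method, NOISeq or EBSeq without saying which served here. Exact permutation tests were two-sided, on the mean of log2(CPM + 0.5) or on shares, over the 6 tumors (scipy 1.17.1).

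The 10 members were all named. From a list of other pathway genes, those past an adjusted p of 0.05 were to be named, and otherwise, per role, the gene with the largest change among those whose groups did not overlap. The members, lists and markers were chosen with earlier results of these data known. Alternatives were DESeq2 1.42.0, RLE, no filter, a minimum of 10 counts per tumor, and leaving out each tumor. FPKM were tested with limma-trend (limma 3.58.1) after adding 1 or 0.1 and taking log2, keeping genes whose mean reached 1. A further fit held the replicate number as a block. For the ligand shares, chosen after the data were seen, the alternatives were counts, *Dll4* in the sum and each tumor left out. RefSeq places other genes over *Notch1*, *Notch2*, *Notch3*, *Jag2* and *Hey1*. None of these is listed in the files, and whether counting used strand is not given in the sources used here. A level of 3 counts is the floor of the depth, for counting error only, and every member exceeded it in every tumor.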

Additional observations from a re-analysis of the deposited data

How the results depend on the processing

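Over 13 alternatives, 7 of the 10 members kept their direction and none passed an adjusted p of 0.05. Leaving out 1 tumor gave log2 fold changes of -0.08 to 0.57 for *Notch3* (below 0 without test replicate 1), -0.44 to 0.18 for *Hes1* (above 0 without control replicate 3 or test replicate 1) and -0.97 to 0.21 for *Heyl* (above 0 without control replicate 3). The difference in the *Notch2* share then ran from -5.67 to 0.805 percentage points, above 0 without control replicate 2 or test replicate 1. The count of members at an unadjusted p under 0.05 ran from 0 to 1, with 0 without control replicate 3 or test replicate 1. Without test replicate 2 the 1 member was *Notch3* (log2 fold change 0.57, unadjusted p = 0.0406 in edgeR), so that *Jag1* lost its unadjusted p in 3 of the 6 omissions.

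Over all genes, calls at an adjusted p of 0.05 were 313 with DESeq2, 1 with limma-trend on log2(FPKM + 1), and 0 to 182 without 1 tumor, the highest without control replicate 2. Genes at an unadjusted p under 0.05 ran from 653 without control replicate 1, and 701 without control replicate 3, to 2020 without control replicate 2. The cause was not tested.

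The groups share replicate numbers, but same-numbered tumors came from different mice, and their deviations from the group means correlated at -0.025, 0.121 and -0.137 across genes. With the replicate number as a block, edgeR gave 2 members an unadjusted p under 0.05, *Jag1* and *Hey1*, 1056 such genes in all, and no other changed call. The differences in the *Dll1* and *Jag1* shares were 25.1 to 35.6 and -24.6 to -14.7 percentage points over the alternatives. Leaving out 1 tumor could not reverse them, because the groups did not overlap. The shares of the ligands add up to the whole, so they are not separate results. With 3 tumors a group, intervals of the log2 fold change spanned 0 for 9 of the 10 members.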
